A study of Mus musculus with 24 samples.

Results

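Genes that respond to stress of the endoplasmic reticulum (ER) were followed in 2 explant models of mouse cartilage. They are *Hspa5*, *Hsp90b1*, *Ddit3*, *Atf3*, *Atf4*, *Xbp1*, *Creb3l2*, *Dnajb9*, *Herpud1* and *Trib3*, chosen by symbol, and they make up 10 of the 52178 genes of the deposited table. *Ddit3* occurs in 2 rows of that table (11 rows carry a member's symbol), and the row used (ENSMUSG00000025408) holds 57 to 678 counts per library against 0 to 6 in the other (ENSMUSG00000116429). All 10 genes passed the filter on low counts. On the plus strand of GRCm38 lie *Hspa5* at chr2:34771970-34777547, *Ddit3* at chr10:127290774-127296288, *Atf4* at chr15:80255184-80257541, *Xbp1* at chr11:5520659-5525893 and *Herpud1* at chr8:94386438-94395377. On the minus strand lie *Hsp90b1* at chr10:86690209-86705509, *Atf3* at chr1:191170296-191218039, *Creb3l2* at chr6:37327255-37442146, *Dnajb9* at chr12:44205559-44210326 and *Trib3* at chr2:152337422-152344032.

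Hip caps (the articular cartilage of the femoral head) came from male C57/BL6J mice (C57/BL6 in the labels) aged 4 weeks, with 2 caps in each sample, and were kept in DMEM. Metatarsals, the growth plate model, came from C57/BL6J embryos at day 15 of unstated sex, with 6 bones in each sample, and were kept in α-MEM with albumin, β-glycerophosphate and ascorbate. After 24 h in culture, each model was held for 1 h at 0 MPa (control), 5 MPa (called physiological) or 50 MPa (called injurious), and RNA was taken after another 24 h. Each of the 6 groups has 4 libraries, and 22 of the 24 were used, because control hip cap 4 and 50 MPa hip cap 2 were left out by the study as clustering outliers. Age, sex and medium change with the tissue, so their part in a difference between tissues cannot be told apart from it. Explants of 1 group were separate samples, and the p-values measure the spread between samples as pooled over both tissues in 1 fit. Each hip cap sample came from a single mouse. Whether the metatarsal pools came from separate embryos or litters is not stated.

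The ER folds secreted and membrane proteins, and chondrocytes load it heavily with collagen and proteoglycan. When unfolded proteins build up, the sensors IRE1α (*Ern1*), PERK (*Eif2ak3*) and ATF6 start the unfolded protein response: IRE1α splices *Xbp1* mRNA, PERK slows translation and favours that of ATF4, and ATF6 is cut to a transcription factor. XBP1 and ATF6 raise chaperones and degradation factors, while ATF4 raises *Ddit3* (encoding CHOP), *Atf3* and *Trib3*, which can lead towards cell death. CREB3L2 (BBF2H7) is a relative of ATF6 that drives the export of cartilage matrix from the ER. Counts summed per gene do not separate spliced from unspliced *Xbp1*, and they report mRNA and not the activity of these proteins.

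3 members (*Hspa5*, *Hsp90b1* and *Herpud1*) carry, in the RefSeq promoter window of 250 bases before to 50 bases after the start site, an element through which ATF6 and XBP1 act. The ER stress response element (ERSE) is CCAAT and CCACG separated by 9 bases, and ERSE-II is ATTGG and CCACG separated by 1 base. The 250 bases before the RefSeq start (GRCm38.p6, transcribed strand) are shown for these 3 members because they hold such an element. Capitals mark the fixed bases of ERSE, of ERSE-II and, in *Herpud1*, of the ATF4 motif described after the sequences.
Hspa5 (chr2:34771840-34772089, plus strand): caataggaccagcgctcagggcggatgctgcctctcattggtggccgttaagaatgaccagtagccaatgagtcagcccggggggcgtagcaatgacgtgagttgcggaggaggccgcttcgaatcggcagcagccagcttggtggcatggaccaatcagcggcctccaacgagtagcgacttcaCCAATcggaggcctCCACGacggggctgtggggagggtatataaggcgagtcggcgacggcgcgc
Hsp90b1 (chr10:86705445-86705694, minus strand): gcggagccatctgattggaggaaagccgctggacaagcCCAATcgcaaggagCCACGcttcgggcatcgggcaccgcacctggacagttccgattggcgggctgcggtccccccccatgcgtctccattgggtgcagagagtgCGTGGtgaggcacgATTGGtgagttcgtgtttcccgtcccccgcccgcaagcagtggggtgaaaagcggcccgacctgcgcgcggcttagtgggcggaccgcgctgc
Herpud1 (chr8:94386179-94386428, plus strand): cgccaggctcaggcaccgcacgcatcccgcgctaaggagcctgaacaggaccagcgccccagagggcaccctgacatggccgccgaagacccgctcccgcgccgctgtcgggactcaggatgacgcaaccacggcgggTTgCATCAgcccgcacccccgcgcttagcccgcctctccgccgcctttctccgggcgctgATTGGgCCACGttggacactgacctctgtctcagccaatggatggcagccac
Searched on both strands, ERSE was found in 39 of 32851 windows (0.119%), among them *Hspa5* with 1 copy and *Hsp90b1* with a copy on each strand. ERSE-II was found in 12 windows (0.0365%), and *Herpud1* is the only member among them. The core of the ATF4 element, TGATGNAA, was found in 3.97% of windows and in those of *Atf3*, *Herpud1* and *Trib3*. The short site CCACG, which is part of both ERSE forms, was found in 32.8% of windows and in 5 of the 10 members, and the XBP1 core TGACGTGG in 0.676% and in no member. A match gives letters only and not a bound site.

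Levels are given as CPM (read counts scaled to the TMM-adjusted total of the library), in the order of the replicate numbers. Per kilobase of the longest annotated transcript, *Hsp90b1* and *Hspa5* were the highest members in both tissues and *Atf3* the lowest. In control hip caps the levels were 211 ± 51.1 CPM per kb for *Hsp90b1*, 105 ± 4.58 for *Hspa5* and 66 ± 11.9 for *Herpud1* (SD, n = 3). The ranges of mean ± SD of these neighbours in the order did not meet, and *Atf3* reached 2.39 ± 0.859 CPM per kb. In control metatarsals *Hsp90b1* was at 91.8 ± 34.9, *Hspa5* at 43.1 ± 12.6, *Atf4* at 31.9 ± 3.33 and *Atf3* at 3.11 ± 0.381 CPM per kb (SD, n = 4), and the ranges of *Hspa5* and *Atf4* met.

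**Figure D1:**
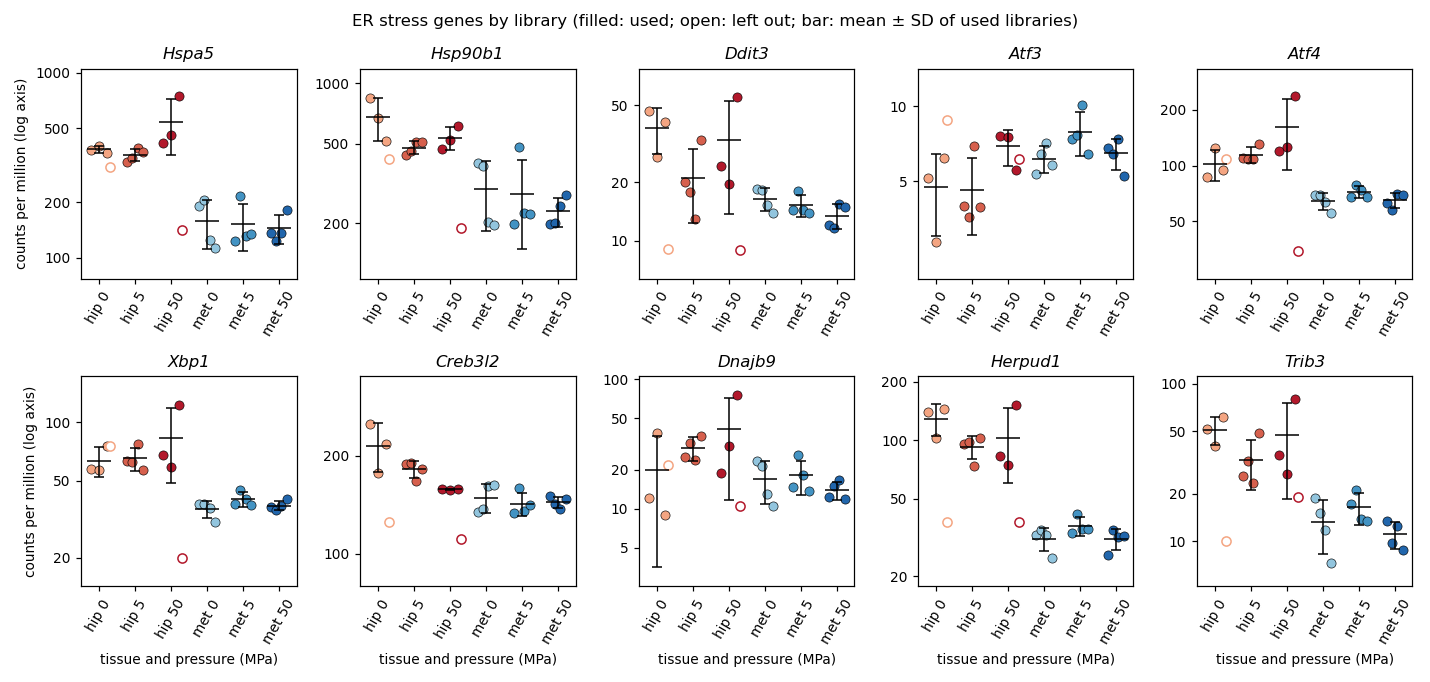
CPM (log axis) of each gene in every library of the 6 groups, with filled points for used libraries, open points for those left out and bars for the mean ± SD of used libraries. The hip caps used lie above all metatarsals for *Hspa5*, *Atf4*, *Xbp1*, *Herpud1* and *Trib3*, and 50 MPa hip cap 4 lies high for most genes. Within a single pressure, 39.9% to 42.4% of all genes did not overlap between the tissues.

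The first question was whether articular and growth plate explants differ in these genes. Of the 10 members, 8 had a log2 fold change above 0 in controls, 9 at 5 MPa and 10 at 50 MPa, and *Herpud1*, *Trib3*, *Hspa5* and *Xbp1* were called higher in all 3 comparisons. At 5 MPa all 8 libraries share the library type (stranded) and, as read with uncertainty from the study's clustering figure, 1 sequencing run. There 7 members were called higher and 1 lower in hip caps (edgeR's quasi-likelihood test, Benjamini-Hochberg adjusted p of at most 0.05 over 21283 genes), beside 18.8% and 19.1% of all genes. In controls 5 members were called higher and 0 lower, beside 14.1% and 15.9% of all genes. At 50 MPa 6 members were called higher and 0 lower, beside 10.1% and 9.58%. The tissues did not overlap for 8, 6 and 9 members in controls, at 5 MPa and at 50 MPa, beside 42.4%, 40.8% and 39.9% of all genes. That share was not computed over the libraries of all pressures together. The median log2 fold change of the members was 0.77 in controls, 0.70 at 5 MPa and 1.14 at 50 MPa, and that of all genes was -0.08, -0.08 and -0.01. Scaling by library totals alone moved the median of all genes to -0.97, -0.70 and -0.90, and changes are given relative to the TMM scale.

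*Hspa5* (BiP, the main ER chaperone and a brake on the 3 sensors) was at 382, 404 and 370.5 CPM in control hip caps, at 331, 348, 391 and 374 at 5 MPa and at 415, 461 and 751 at 50 MPa. In metatarsals it was at 190.4, 206, 125 and 113 CPM in controls, at 124, 217, 132 and 135 at 5 MPa and at 136, 123, 137 and 181 at 50 MPa. Every hip cap library used lay above every metatarsal library, though the left-out 50 MPa hip cap 2 was at 141 CPM. *Hspa5* was called higher in hip caps 1.97-fold in controls (log2 fold change 0.98, SE 0.30, adjusted p = 0.0163), 2.37-fold at 5 MPa (1.25, SE 0.21, adjusted p = 6.38e-05) and 3.08-fold at 50 MPa (1.62, SE 0.32, adjusted p = 0.000936).

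*Hsp90b1* (GRP94, the ER form of HSP90) was at 847, 672 and 517 CPM in control hip caps, at 438, 459, 507 and 507 at 5 MPa and at 470, 519 and 609 at 50 MPa. Metatarsals had 398, 388, 202 and 195 CPM in controls, 197, 478, 225 and 221 at 5 MPa and 197, 199.7, 243 and 275 at 50 MPa. The tissues overlapped only through 5 MPa metatarsal 2, which exceeded 3 of the 10 hip caps. *Hsp90b1* was called at 5 MPa (1.70-fold, log2 fold change 0.77, SE 0.25, adjusted p = 0.0173), and it missed the threshold in controls (0.82, adjusted p = 0.0842) and at 50 MPa (1.03, adjusted p = 0.0563). Of its 31-base words 12.3% occur in other genes, mainly 1 on the opposite strand, which an unstranded library cannot separate.

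*Dnajb9* (ERdj4, a co-chaperone of BiP that XBP1 induces) varied most between hip caps. It was at 12, 38.7 and 8.95 CPM in controls, at 24.9, 32.4, 23.9 and 36.6 at 5 MPa and at 18.9, 30.5 and 75.5 at 50 MPa. Metatarsals had 23.4, 21.4, 13.1 and 10.4 CPM in controls, 14.7, 25.8, 18.2 and 13.8 at 5 MPa and 12.4, 15, 16.6 and 11.8 at 50 MPa. Hip caps lay apart from metatarsals at 50 MPa alone, where the gene was called (3.73-fold, log2 fold change 1.90, SE 0.62, adjusted p = 0.0393). Without 50 MPa hip cap 4 the log2 fold change was 1.20 (adjusted p = 0.126), and 20 of 34 alternative fits kept the call. Of the 31-base words of *Dnajb9* 10.8% occur in *Gm6568* on the same strand, which a stranded library cannot separate.

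*Herpud1* encodes a membrane protein that helps to assemble the complex for ER-associated degradation, by which misfolded proteins leave the ER. It was at 140, 102 and 145 CPM in control hip caps, at 95.4, 97.6, 73.9 and 102 at 5 MPa and at 83, 74 and 152 at 50 MPa. Metatarsals had 32.5, 34.5, 32.5 and 24.8 CPM in controls, 33.1, 41.9, 34.8 and 34.9 at 5 MPa and 25.6, 34.6, 31.7 and 32.2 at 50 MPa. The lowest hip cap used lay above the highest metatarsal, while the left-out hip caps were at 37.7 (control) and 37.9 CPM (50 MPa). *Herpud1* had the smallest adjusted p of the members in each comparison of the tissues, being 3.99-fold higher in controls (log2 fold change 2.00, SE 0.28, adjusted p = 1.4e-05), 2.55-fold at 5 MPa (1.35, SE 0.19, adjusted p = 6.72e-06) and 3.02-fold at 50 MPa (1.60, SE 0.30, adjusted p = 0.000471).

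*Xbp1* was at 57.3, 56.6 and 75.7 CPM in control hip caps, at 63.4, 62.6, 77.2 and 56.7 at 5 MPa and at 67.9, 58.9 and 123 at 50 MPa. Metatarsals ran from 30.5 to 44.9 CPM over their 12 libraries, with a median of 37.5, so the tissues did not overlap among the libraries used. The left-out 50 MPa hip cap 2 was lower than all of these, at 20 CPM. The gene was called in all 3 comparisons, 1.66-fold higher in control hip caps (log2 fold change 0.73, SE 0.24, adjusted p = 0.0241), 1.63-fold at 5 MPa (0.70, SE 0.17, adjusted p = 0.00205) and 1.93-fold at 50 MPa (0.95, SE 0.26, adjusted p = 0.0123), with -0.19, 0.08 and -0.16 when scaled by library totals alone.

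*Creb3l2* was at 251, 177 and 217 CPM in control hip caps, at 188, 190.4, 167 and 182 at 5 MPa and at 158, 157 and 158 at 50 MPa. Metatarsals ran from 133 to 163 CPM with a median of 142. Hip caps lay above the metatarsals of their own pressure in each comparison, but the 50 MPa hip caps lay within the range of the 12 metatarsals. *Creb3l2* was called higher in control hip caps (1.51-fold, log2 fold change 0.59, SE 0.17, adjusted p = 0.011) and at 5 MPa (1.28-fold, 0.36, SE 0.12, adjusted p = 0.0214), with -0.33 and -0.26 when scaled by library totals alone. At 50 MPa the log2 fold change was 0.15 with a 95% interval from -0.21 to 0.52 (adjusted p = 0.62).

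*Atf4*, the central factor of the integrated stress response, was at 86.7, 124 and 95 CPM in control hip caps, at 110.1, 108, 109 and 131 at 5 MPa and at 119.6, 126 and 238 at 50 MPa. Metatarsals ran from 55.3 to 78.6 CPM, with a median of 68.5, and lay below every hip cap used, though the left-out 50 MPa hip cap 2 was at 34.4 CPM. The gene was called at 5 MPa (1.59-fold, log2 fold change 0.67, SE 0.17, adjusted p = 0.0044) and at 50 MPa (2.35-fold, 1.23, SE 0.27, adjusted p = 0.00207). In controls the log2 fold change was 0.55 (SE 0.25, adjusted p = 0.0996).

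*Trib3*, a pseudokinase induced by ATF4 and CHOP, was at 51.4, 40.3 and 61 CPM in control hip caps, at 25.9, 32.1, 23.5 and 48.8 at 5 MPa and at 35, 26.7 and 79.5 at 50 MPa. Metatarsals ran from 7.26 to 21.3 CPM with a median of 13.4. The lowest hip cap used was above the highest metatarsal, while the left-out hip caps were at 9.97 (control) and 19 CPM (50 MPa). *Trib3* was called in the controls (3.60-fold, log2 fold change 1.85, SE 0.50, adjusted p = 0.00968), at 5 MPa (1.98-fold, 0.99, SE 0.33, adjusted p = 0.0274) and at 50 MPa (3.84-fold, 1.94, SE 0.57, adjusted p = 0.0232). Without 50 MPa metatarsal 4 the log2 fold change was 0.74 at 50 MPa (adjusted p = 0.692) and 1.25 in controls (adjusted p = 0.141). In controls it was also 1.27 without hip cap control 3 (adjusted p = 0.154) and 2.85 without metatarsal control 1, where the call was kept.

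*Ddit3* was at 46.7, 26.9 and 41.1 CPM in control hip caps, at 20, 17.9, 13 and 33.1 at 5 MPa and at 24.4, 19.6 and 55.1 at 50 MPa. Metatarsals ran from 11.6 to 18.6 CPM with a median of 14.7. The 2 tissues overlapped at 5 MPa only, and edgeR called *Ddit3* in none of the comparisons, with log2 fold changes of 1.05 in controls (SE 0.42, adjusted p = 0.0687), 0.47 at 5 MPa (SE 0.29, adjusted p = 0.216) and 1.05 at 50 MPa (SE 0.45, adjusted p = 0.122). In controls 9 of 34 alternatives called it, among them DESeq2 (1.01, adjusted p = 0.0488).

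*Atf3*, an early stress factor, was the only member called lower in hip caps, and at 5 MPa alone. It was at 5.16, 2.86 and 6.19 CPM in control hip caps, at 3.99, 3.59, 6.96 and 3.96 at 5 MPa and at 7.59, 7.56 and 5.57 at 50 MPa. Metatarsals had 5.36, 6.42, 7.09 and 5.79 CPM in controls, 7.41, 7.68, 10.1 and 6.42 at 5 MPa and 6.81, 6.41, 7.39 and 5.26 at 50 MPa. At 5 MPa it was called lower in hip caps (log2 fold change -0.76, SE 0.22, adjusted p = 0.00974), although hip cap 3 lay within the metatarsal range. The log2 fold change was -0.12 in controls (adjusted p = 0.823) and 0.24 at 50 MPa (adjusted p = 0.709).

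**Figure D2:**
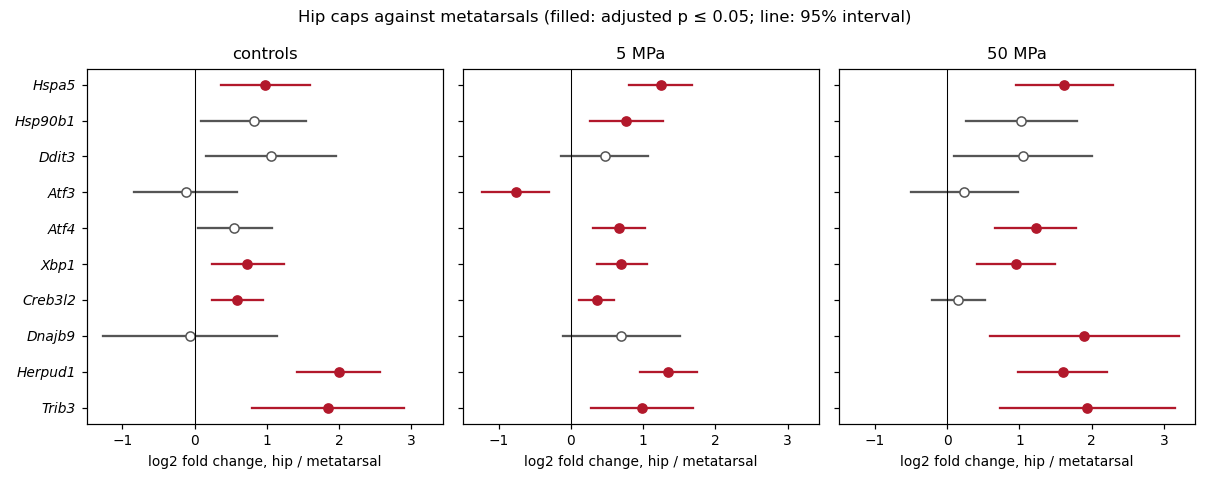
Log2 fold change of hip caps over metatarsals for each gene in controls, at 5 MPa and at 50 MPa, with 95% intervals and filled points where the adjusted p is at most 0.05. *Herpud1* has the smallest adjusted p in each panel, and *Atf3* is called lower at 5 MPa.

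The comparisons at 0 and 50 MPa lean on single libraries, because run (as read from the study's figure) and library type (stranded or unstranded) are spread unevenly over the groups. Metatarsal control 1 carries a weight of -0.64 in the first and 50 MPa metatarsal 4 one of -0.76 in the second. Calls over all genes fell along with the members' calls when such libraries were left out. In controls, where 6372 genes were called with all 22 libraries, 2 members were called without metatarsal control 1 (1204 genes higher and 1366 lower), 2 without hip cap control 3 (2155 and 2235) and 2 without 50 MPa metatarsal 4 (2183 and 2276). At 50 MPa, where 4198 genes were called, 0 members were called without the last of these (570 and 488 genes). At 5 MPa, where 8061 genes were called, 5 members were called without metatarsal 3 of that pressure (3731 and 3762 genes). With the 2 left-out hip caps included, 2 members were called in controls (2449 genes higher and 2734 lower), 3 at 5 MPa (2453 and 2120) and 0 at 50 MPa (879 and 902). Within the stranded libraries of run 1, the ratio of 2 control hip caps to metatarsal control 1 was 2.06 for *Hspa5*, 3.72 for *Herpud1*, 2.42 for *Trib3* and 0.749 for *Atf3*. Against 50 MPa metatarsal 4, which shares run and library type with the 50 MPa hip caps, the ratio was 2.99 for *Hspa5*, 3.19 for *Herpud1* and 2.31 for *Atf4*.

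Markers of other cells move with the tissue. All ranges here are over the libraries used. Summed over 7 chondrocyte markers, hip caps had 19882 to 70296 CPM and metatarsals 1455 to 3909 CPM, so the metatarsal libraries hold far less of the RNA that defines cartilage. Over 6 skeletal muscle markers the sums were 7.34 to 48.6 CPM in hip caps and 449 to 2584 CPM in metatarsals, and over 5 osteoclast markers 323 to 1697 and 35.8 to 75.1 CPM. Over 5 osteoblast markers hip caps had 1299 to 6548 CPM and metatarsals 2278 to 4489 CPM. Most of the metatarsal sum was *Col1a1*, with means of 665 CPM in control hip caps and 3115 in control metatarsals. *Ibsp*, *Sp7*, *Dmp1* and *Bglap* went the other way, with 1491, 84, 10.3 and 2.5 CPM in control hip caps against 100.5, 11.9, 1.34 and 0.0286. Macrophage (5 markers), endothelial (4 markers), neutrophil (6 markers) and erythroid (5 markers) sums each stayed at or under 232 CPM. The neutrophil sums still lay apart, at 4.95 to 184 CPM in hip caps and 0.463 to 4.0 CPM in metatarsals. The left-out control hip cap 4 had a macrophage sum of 285 CPM. Of the plasma and B cell markers, *Mzb1* and *Tnfrsf17* averaged at most 0.117 and 0.155 CPM in every group, and *Sdc1*, which other cells also express, supplied most of the sum. The part of cell composition in the differences was not tested, and in such bulk samples fewer cells of a type and less RNA per cell cannot be told apart.

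The rest of the pathway was read from lists of 77 genes that include the members. Among ER chaperones and foldases, 15 of 18 were called higher and 1 lower in hip caps at 5 MPa (18.8% and 19.1% of all genes), with a median log2 fold change of 0.97 against -0.08 over all genes, and 11 of 18 were called higher and 0 lower both in controls (14.1% and 15.9% of all genes) and at 50 MPa (10.1% and 9.58%). *Ero1a*, an oxidase that feeds disulphide formation, was the one called lower at 5 MPa (54.4 ± 17.8 CPM in hip caps, 136 ± 75.5 in metatarsals, SD, n = 4 each, log2 fold change -1.32, SE 0.40, adjusted p = 0.0165). In the list of ER-associated degradation 8, 10 and 8 of 14 genes were called higher in controls, at 5 MPa and at 50 MPa (14.1%, 18.8% and 10.1% of all genes), and none lower. *Selenos*, a membrane component of that machinery, was at 71 ± 9.84 CPM in control hip caps (SD, n = 3) and 16.1 ± 1.67 in metatarsals (n = 4), a 4.31-fold difference (log2 fold change 2.11, SE 0.23, adjusted p = 8.51e-07).

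All sensors were higher where called. *Ern1* was at 71.8 ± 1.54 CPM in control hip caps and 31.8 ± 1.81 in metatarsals (2.42-fold, log2 fold change 1.28, SE 0.26, adjusted p = 0.000873), and it was called at 5 MPa (0.97, adjusted p = 0.000183) and at 50 MPa (1.65, adjusted p = 0.000214). *Eif2ak3* was called in controls (0.65, adjusted p = 0.00401) and at 5 MPa (0.29, adjusted p = 0.0398), with 0.42 at 50 MPa (adjusted p = 0.0895). *Atf6* was called at 5 MPa (0.73, adjusted p = 0.000374) and 50 MPa (0.74, adjusted p = 0.0216), with 0.47 in controls (adjusted p = 0.0923). Of the 14 sensors and regulators 5, 10 and 6 were called higher in controls, at 5 MPa and at 50 MPa (14.1%, 18.8% and 10.1% of all genes), and 1, 1 and 0 lower (15.9%, 19.1% and 9.58%). *Mbtps2*, a protease that cuts ATF6, was the lower one in controls (15.6 ± 5.2 CPM against 26.9 ± 3.43, log2 fold change -0.83, SE 0.21, adjusted p = 0.00512).

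Of 20 ATF4 and integrated stress response targets, 8, 11 and 7 were called higher in hip caps in controls, at 5 MPa and at 50 MPa (14.1%, 18.8% and 10.1% of all genes), and 1, 2 and 0 lower (15.9%, 19.1% and 9.58%). *Nupr1*, a stress-induced chromatin protein, was at 146 ± 44.8 CPM in control hip caps and 18.8 ± 3.48 in metatarsals (7.73-fold, log2 fold change 2.95, SE 0.42, adjusted p = 3.19e-05). *Chac1*, which degrades glutathione, was at 16.8 ± 2.19 and 3.85 ± 1.04 CPM (4.43-fold, log2 fold change 2.15, SE 0.36, adjusted p = 0.00012). *Atf5* was 3.87-fold higher at 5 MPa (log2 fold change 1.95, SE 0.26, adjusted p = 6.09e-06) and the cystine transporter gene *Slc7a11* 4.26-fold higher at 50 MPa (2.09, SE 0.57, adjusted p = 0.015). *Ddit4*, an inhibitor of mTOR signalling, was called lower in control hip caps (log2 fold change -1.01, SE 0.37, adjusted p = 0.0445) and at 5 MPa (-1.05, SE 0.26, adjusted p = 0.00321). In the list of the OASIS family and COPII export 5, 7 and 4 of 13 tested genes were called higher (14.1%, 18.8% and 10.1% of all genes) and none lower.

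**Figure D3:**
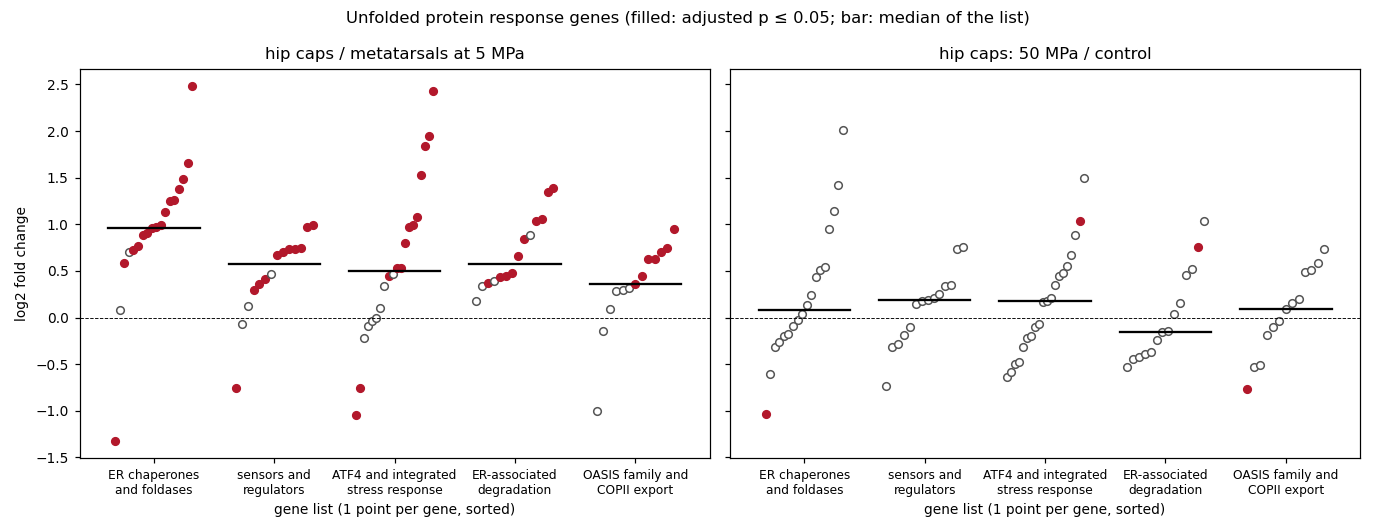
Log2 fold changes of the genes of the 5 pathway lists, 1 point per gene with the list median as a bar, for hip caps over metatarsals at 5 MPa (left) and for 50 MPa over control hip caps (right), filled where the adjusted p is at most 0.05. Of the chaperones and foldases, 15 are called higher and 1 lower on the left, and 0 higher and 1 lower on the right.

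The second question was whether pressure changed these genes, 24 h after it was applied. By edgeR's test no member was called in either tissue at either pressure, while DESeq2 called 3 in hip caps at 50 MPa. In hip caps at 5 MPa 0 members were called, beside 0.0094% of genes higher and 0.0094% lower, and 0 had an unadjusted p under 0.05. DESeq2 also called 0 members there, at 408 genes higher and 162 lower. In hip caps at 50 MPa 0 members were called, beside 3.32% of genes higher and 1.86% lower, and 3 had an unadjusted p under 0.05. In metatarsals 0 members were called at 5 MPa and at 50 MPa, beside 0% of genes in each direction and at each pressure, with 0 members under an unadjusted p of 0.05 at either pressure and 0 called by DESeq2. Both pressures were compared with the same controls.

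The 3 members with an unadjusted p under 0.05 in hip caps at 50 MPa were *Dnajb9*, *Creb3l2* and *Atf4*. *Dnajb9* had a log2 fold change of 2.01 with a 95% interval from 0.64 to 3.38 (adjusted p = 0.0772), but the groups overlapped, since control hip cap 2 (38.7 CPM) lay above 2 of the 3 pressed ones. *Creb3l2* had -0.51 with an interval from -0.87 to -0.15 (adjusted p = 0.0859), and all 3 pressed hip caps (157 to 158 CPM) lay below the lowest control (177 CPM). That order gives an exact permutation p of 0.10, the smallest that 3 against 3 allows, and 15.8% of all genes did not overlap between these groups. *Hspa5* also did not overlap there (415 to 751 against 370.5 to 404 CPM, exact permutation p = 0.10), with a log2 fold change of 0.51 (SE 0.31, adjusted p = 0.355) and of 0.20 without replicate 4. *Atf4* had 0.73 with an interval from 0.17 to 1.28 (adjusted p = 0.107), and it was at 238 CPM in replicate 4 against 119.6 and 126 in the other two.

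At 50 MPa DESeq2 called *Dnajb9* (log2 fold change 2.08, adjusted p = 0.00447), *Creb3l2* (-0.50, adjusted p = 0.017) and *Atf4* (0.73, adjusted p = 0.0498) but not *Hspa5*. Beside them it called 1531 genes higher and 917 lower of 17130. A requirement of at least 10 counts in every library left *Dnajb9* (adjusted p = 0.0426) and *Creb3l2* (adjusted p = 0.045) past the threshold, beside 900 genes higher and 737 lower of 10934. Without control hip cap 2 it was 2 members (1538 genes higher and 896 lower), without 5 MPa hip cap 3 it was 1 (977 and 881), without 50 MPa hip cap 1 it was 1 (719 and 311) and without 50 MPa hip cap 4 it was 1 (933 and 750). The comparison rests on control hip cap 3, the only control library labelled unstranded, with a weight of -0.76. Against that library alone, the mean of the pressed hip caps without replicate 4 was 2.76 times as high for *Dnajb9*, 1.29 times for *Atf4* and 0.726 times for *Creb3l2*. Against all 3 controls, which include higher values of *Dnajb9*, the ratios without replicate 4 were 1.24, 1.20 and 0.732.

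Replicate 4 at 50 MPa stood above the mean of its 2 group mates for 9 of the 10 members. The ratio was 3.06 for *Dnajb9*, 2.58 for *Trib3*, 2.51 for *Ddit3*, 1.94 for *Atf4*, 1.93 for *Xbp1* and *Herpud1*, 1.71 for *Hspa5* and 1.23 for *Hsp90b1*, with *Creb3l2* at 1.01 and *Atf3* at 0.735. The factor by which TMM scales the library total was 0.427 in replicate 4, the lowest of all libraries, against 0.683 and 1.058 in its mates. A low factor raises every CPM of a library, and these ratios were not taken on library totals alone. In that library the median ratio over genes of at least 1 CPM was 0.931, and 14.8% of them exceeded 1.5. Its chondrocyte marker sum (31210.3 CPM) lay between those of its mates, and its osteoclast sum of 1697 CPM was the highest of the hip caps used. Without it, *Herpud1* was called lower at 50 MPa (log2 fold change -0.82, adjusted p = 0.0272, from -0.44 and 0.346 with it) and *Dnajb9* moved from 2.01 to 1.32, *Atf4* from 0.73 to 0.34, *Trib3* from -0.10 to -0.68 and *Ddit3* from -0.32 to -0.86.

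**Figure D4:**
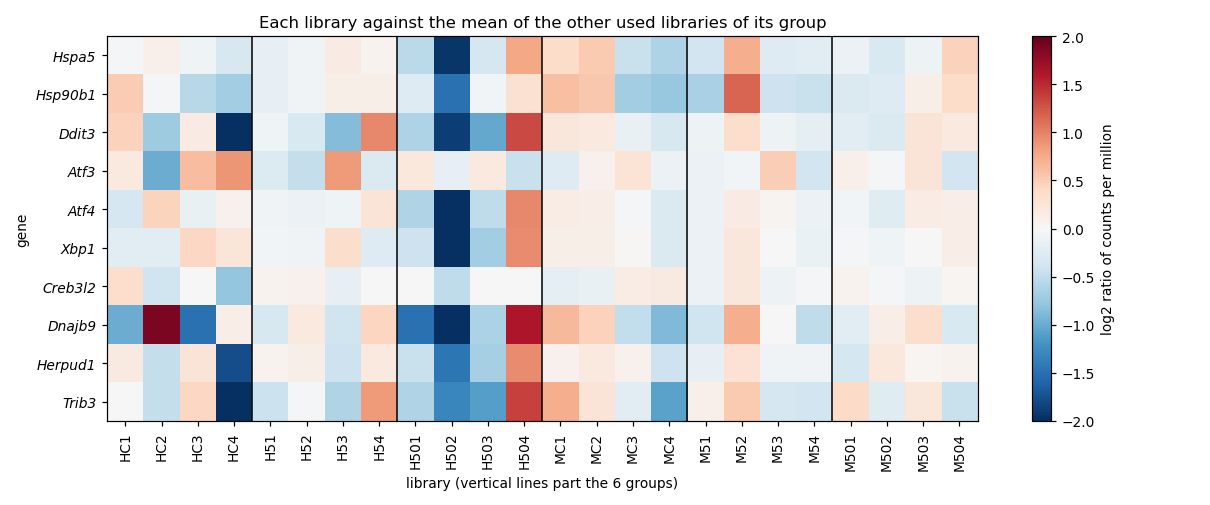
Log2 ratio of each library's CPM to the mean of the other used libraries of its group, for each gene, with a colour scale that ends at -2 and 2 and lines between the groups. The hip cap libraries H504 (50 MPa replicate 4, high) and HC4 and H502 (left out, low for several genes) and the metatarsal library M52 (5 MPa replicate 2, high) stand out.

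At 5 MPa the hip caps lay wholly below the controls for *Herpud1* (73.9 to 102 against 102 to 145 CPM, the closest pair within 1 CPM) and *Hsp90b1* (438 to 507 against 517 to 847 CPM), an exact permutation p of 0.0571 for each, the smallest that 4 against 3 allows, and 16.2% of genes did not overlap. The fitted log2 fold changes were -0.43 (SE 0.30, adjusted p = 0.512) and 0.08 (SE 0.39, adjusted p = 0.955). As read from the study's figure, all 5 MPa hip caps are of run 2 and all controls used are of run 1. This comparison therefore takes its run correction from metatarsals. The left-out control of run 2 was at 37.7 CPM for *Herpud1* and 420.3 for *Hsp90b1*, below the 5 MPa means of 92.1 and 478. Its chondrocyte marker sum was 8645 CPM and its osteoclast sum 4687 CPM.

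The other members had 5 MPa log2 fold changes from -0.66 for *Ddit3* (95% interval -1.66 to 0.33) to 1.08 for *Dnajb9* (-0.28 to 2.43) in hip caps. The chondrocyte marker sum ran from 43089.6 to 70296 CPM in control hip caps, from 19882 to 47781 at 5 MPa and from 29561 to 33404 at 50 MPa, and the osteoclast sum from 323 to 515, 529 to 1666 and 537 to 1697 CPM. Their part in the pressure results was not tested.

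Estimated in each tissue alone, the dispersion (spread between libraries of a group) was lower in metatarsals for each member but *Hsp90b1* (0.091 against 0.0664 in hip caps). The SEs come from 1 fit of both tissues and depend also on how runs and library types are spread over the groups. The members' log2 fold changes ran from -0.10 to 0.39 at 5 MPa and from -0.31 to 0.05 at 50 MPa, with SEs of 0.125 to 0.408 and 0.126 to 0.415, and each adjusted p was 1.0. For *Xbp1* the 95% intervals were -0.20 to 0.53 and -0.38 to 0.36, and for *Atf4* -0.17 to 0.59 and -0.34 to 0.43. Metatarsal 2 at 5 MPa stood above its mates for 9 members, by 2.23 for *Hsp90b1*, 1.66 for *Hspa5* and *Dnajb9* and 1.43 for *Trib3*, where 1.75% of all genes of at least 1 CPM exceeded 1.5. Metatarsal controls 1 and 2 were likewise above their mates for *Hsp90b1*, by 1.52 and 1.46.

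**Figure D5:**
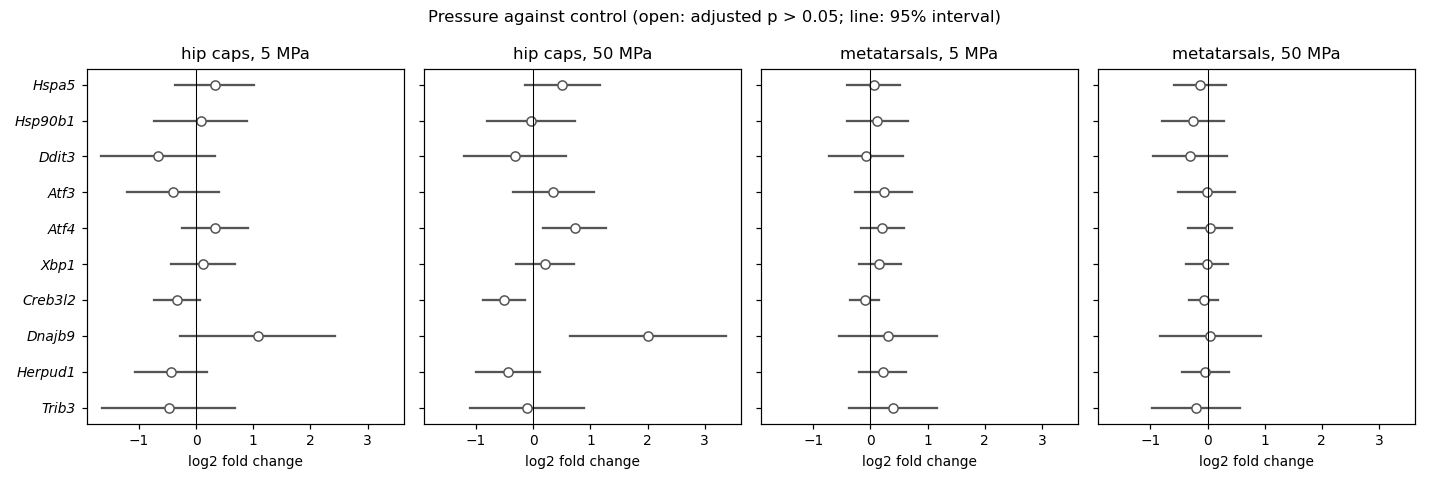
Log2 fold change of each pressure over control for each gene in hip caps and metatarsals, with 95% intervals, all points open because no adjusted p is at or under 0.05. The intervals in hip caps are wider than those in metatarsals, and *Dnajb9*, *Atf4* and *Creb3l2* in hip caps at 50 MPa have intervals that leave out 0.

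Whether pressure acted differently in the tissues was tested as an interaction. At 5 MPa 0 members were called, beside 0.0094% of genes in each direction, and 0 had an unadjusted p under 0.05. At 50 MPa 0 members were called, beside 0.0799% of genes higher and 0.0517% lower, with an unadjusted p under 0.05 for 3 members, namely *Dnajb9* (difference of log2 fold changes 1.96, 95% interval 0.53 to 3.40, adjusted p = 0.141), *Atf4* (0.68, 0.08 to 1.28, adjusted p = 0.211) and *Creb3l2* (-0.44, -0.85 to -0.04, adjusted p = 0.232). Without 50 MPa hip cap 4 these were 1.26, 0.30 and -0.44. DESeq2 called *Dnajb9* in this test (2.04, adjusted p = 0.0203), beside 855 of 15486 genes higher.

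Among the 77 genes of the lists, 2 were called higher and 2 lower in hip caps at 50 MPa, a share near the 3.32% and 1.86% of all genes. *Serpinh1* (HSP47, the collagen chaperone) fell from 1406 ± 358 to 821 ± 121 CPM (SD, n = 3 each, log2 fold change -1.04, SE 0.22, adjusted p = 0.0156) and *Creb3*, of the same family as *Creb3l2*, from 31.7 ± 5.38 to 22.3 ± 1.59 CPM (-0.77, SE 0.19, adjusted p = 0.0285). *Asns*, the asparagine synthetase gene and an ATF4 target, rose from 29.8 ± 10.3 to 54.8 ± 15.2 CPM (1.03, SE 0.28, adjusted p = 0.0415), and *Derl2*, a degradation channel protein, from 16.7 ± 3.58 to 24.5 ± 0.895 CPM (0.76, SE 0.17, adjusted p = 0.0195). Each was the single gene called in its list, and 0 of 14 sensors and regulators were called. *Ern1*, *Eif2ak3* and *Atf6* had log2 fold changes of 0.25, -0.28 and 0.18 (adjusted p = 0.623, 0.321 and 0.668) in hip caps at 50 MPa and of -0.33, -0.34 and 0.23 at 5 MPa (adjusted p = 0.621, 0.377 and 0.674). In hip caps at 5 MPa and in metatarsals at both pressures 0 genes of the 5 lists were called, and the sensors' log2 fold changes in metatarsals lay between -0.13 and 0.01, each with an adjusted p of 1.0.

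The members moved together from library to library to a moderate degree. Over the 22 libraries, with each group's mean taken out of log2 CPM, the 45 pairs of members had Pearson correlations of -0.55 to 0.86 with a median of 0.40. The median was 0.64 over the 12 metatarsals, 0.34 over the 10 hip caps and -0.07 over the hip caps without 50 MPa replicate 4. In the same residuals, over 9045 named genes of at least 10 CPM, the genes most like *Hspa5* were *Pdia6* (0.92), *Sel1l* (0.89) and *Pdia4* (0.89). Those most like *Atf4* were *Pgrmc2* (0.94), *Armcx2* (0.94) and *Copb2* (0.93), and those most like *Ddit3* were *Golga2* (0.91), *Spg20* (0.90) and *Zfp395* (0.89). These correlations share libraries and depth and are descriptions.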

How the data were processed

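RNA-seq libraries of 24 samples in 6 groups were analysed. Per the labels and the study's methods, ribosomal RNA was depleted, and the authors trimmed reads with Trim Galore 0.6.5, pseudoaligned them with kallisto, with tximport giving gene totals. The paper reports RNA integrity below the ideal minimum in all samples, and it reads this as partial degradation that made depletion necessary. How RNA integrity differed between groups is not given in the paper's text, and its part in the results was not tested. The deposited table holds estimated counts, 26.6% of them not whole, with no normalization, and library totals ran from 4185557 to 25104484. The build named in the submitters' notes is GRCm39, and the annotation release is not given in the sources used here. Gene names (48845 of 52178 genes) and lengths came from GENCODE M21 (GRCm38), and promoter windows from RefSeq (GRCm38.p6), with all 10 members matched. The older symbols of *Ero1a*, *Ero1b* and *Sars1* were used to find them.

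Counts were rounded and fitted with edgeR 4.0.16 in R 4.3.3 (filterByExpr, TMM, robust quasi-likelihood F test) on 22 libraries with terms for group, sequencing run and library type. Groups and library type came from the labels. The paper describes its library construction as strand specific, and it fits strandedness as a possible batch effect. Run membership was taken from a colour strip in the study's clustering figure. It is uncertain, since the numbers of libraries per run so read differ from those the paper gives for its sequencing kits. Fits without it are among the alternatives. Tests were two-sided, with Benjamini-Hochberg adjustment over 21283 genes, and a gene was called at an adjusted p of at most 0.05. Each SE was the fitted log2 fold change over the square root of F. Log2 CPM used a prior count of 2.

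The labels give pressures in mPa and the paper in MPa, which was used. The named genes are all members, the 3 called list genes with the largest absolute log2 fold change in each direction and comparison among those of at least 10 CPM in a group, and *Ern1*, *Eif2ak3* and *Atf6*. Members, lists and tests were chosen with earlier results of these data known. No 2 libraries held the same values. Libraries were not treated as paired by replicate number in the main fit. Residual correlations between equal numbers of pressed and control libraries ran from -0.099 to 0.142. Unequal numbers were not set beside them, so these values cannot decide whether libraries share an origin. The fit was tested on simulated data. Alternatives were DESeq2 1.42.0, other scalings, count filters, library sets and batch terms, a replicate block, removal of a GC trend, single tissues or runs, and leaving out each library.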

Additional observations from a re-analysis of the deposited data

Results flagged for a closer look

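In each group of 4 libraries, left-out ones included, the gap of the highest or lowest log2 CPM to its neighbour was compared with the group's range by Dixon's test (critical value 0.829), over 60 combinations of gene and group. It marked 6 values, where chance alone marks about 1 in 20 groups. Of the 6, 3 belong to 5 MPa metatarsal 2, with *Hspa5* at 217 CPM (others 124 to 135), *Hsp90b1* at 478 CPM (others 197 to 225) and *Ddit3* at 18.1 CPM (others 13.9 to 14.5). The chondrocyte marker sum of that library was 2470.3 CPM and its skeletal muscle sum 2112 CPM, the highest of the 5 MPa metatarsals in each case, and their part was not tested.

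In hip caps, *Atf3* was at 6.96 CPM in 5 MPa replicate 3 (others 3.59 to 3.99) and *Atf4* at 131 CPM in 5 MPa replicate 4 (others 108 to 110.1). *Creb3l2* was at 111 CPM in the left-out 50 MPa replicate 2 (others 157 to 158). The 50 MPa hip cap 4, though high for most members, was not marked for any of them.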

How the results depend on the processing

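Over the alternatives, 3002 of 3110 values of single members kept their side of the threshold, 67 lost their call and 37 gained one. Another 4, called in the main fit, reversed in direction. These reversals came with library totals alone: *Xbp1* at -0.19 in controls and -0.16 at 50 MPa, and *Creb3l2* at -0.33 in controls and -0.26 at 5 MPa. Values that were not called could change sign and still count among the 3002. For *Xbp1* in hip caps at 50 MPa against control, 0.21 became -0.17 without 50 MPa hip cap 4. Members called higher or lower in hip caps against metatarsals in controls (5) came to 1 with library totals alone, 2 with all 24 libraries, 8 with no batch term and 8 with library type only. At 5 MPa (8) they came to 3 with library totals alone and 3 with all 24 libraries, and at 50 MPa (6) to 0 with library totals alone and 0 with all 24 libraries. Library totals alone also changed the split of all genes, to 712 higher and 8217 lower in controls, 1257 and 8889 at 5 MPa and 517 and 6328 at 50 MPa. In hip caps at 50 MPa against control (0 members) DESeq2 called 3, a minimum of 10 counts in every library 2 and the replicate block 1 (*Dnajb9*, adjusted p = 0.0195), and in the interaction at 50 MPa (0) DESeq2 called 1. The block moved no other count of members by over 1.5 times, and with it 5, 7 and 6 members were called between the tissues. Leaving out each library gave 2 to 7 calls between tissues in controls, 5 to 8 at 5 MPa and 0 to 7 at 50 MPa, and 0 to 2 in hip caps at 50 MPa, 0 to 1 in the interaction at 50 MPa and 0 in the other 4 comparisons. Over all genes the calls in hip caps at 5 MPa ran from 1 to 2027 over the alternatives and at 50 MPa from 0 to 2448, and in metatarsals from 0 to 17 and 0 to 16. The cause was not tested. The median dispersion of 0.106 in hip caps against 0.0349 in metatarsals, and the uneven spread of runs and library types, limit what the hip cap comparisons can show.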
